A study of Homo sapiens with 6 samples.

Results

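The selenoprotein genes SELENOF, SELENOH, SELENOK, SELENOM, SELENON, SELENOS, SELENOT and SELENOW, most of whose products sit in the endoplasmic reticulum (ER), were examined with UGGT1 and UGGT2, the enzymes SELENOF works with. They were taken by gene name, 10 rows of the 58735 genes in the deposited table. The set was chosen by the FPKM of SELENOF, which was lower after si-circ_0000839 than in NC, so the differences of the 10 genes in that comparison are given as a description, with no p-value and nothing drawn from whether SELENOF passed a threshold. RNA came from TPC1, an established papillary thyroid cancer line that carries a RET fusion, in 2 groups of 3 samples. One group received the siRNA si-circ_0000839 against the circular RNA hsa_circ_0000839, the other the negative-control siRNA NC, and all 6 samples were collected 60 h after transfection. The labels do not say whether replicates are separate cultures, and p-values therefore reflect a spread that may be technical.

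Selenoproteins contain selenocysteine, an amino acid inserted at a UGA codon that would otherwise end translation. The insertion needs a stem-loop in the transcript's 3′ region, a binding protein, a dedicated elongation factor and a tRNA of its own. SELENOF is a small thioredoxin-like protein of the ER lumen that binds tightly to UGGT1. UGGT1 senses misfolded glycoproteins and puts a glucose back on their glycans, which returns them to the lectin chaperones calnexin and calreticulin for another round of folding.

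The selenocysteine codon and its surroundings are shown for the 8 selenoprotein genes because they define the family and divide it by redox motif. Coding bases from GENCODE release 29 (GRCh38) run 5′ to 3′ in frame, with up to 4 codons before and 5 after, never past the last coding base. Capitals mark the TGA codon and any cysteine codon (TGC or TGT) before it.
SELENOF: gaagttTGTggaTGAaaattgggaaggttc
SELENOH: catTGCactagcTGAcgcgtctatgggcgc
SELENOM: accTGCgggggaTGAcagctgaaccgccta
SELENOT: attTGTgtttccTGAggttataggcgggtg
SELENOW: tatTGTggcgctTGAggctacaagtccaag
SELENON: gaccagtccTGCTGAggttcagggcggact
SELENOK: atggctggtggaTGAggaagg
SELENOS: tcatctggcggaTGAggc
In SELENOH, SELENOM, SELENOT and SELENOW, 2 codons lay between the cysteine codon and TGA. In SELENOF 1 codon did, and in SELENON the pair was adjacent. SELENOK and SELENOS had no cysteine codon in the window, and their TGA stood almost at the end of the reading frame, with 2 and 1 coding codons after it. The TGA was codon 96 of 165 in SELENOF and codon 13 of 87 in SELENOW.

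The codon lay on the minus strand at chr1:86880690-86880692 for SELENOF, chr3:53885831-53885833 for SELENOK, chr15:101272777-101272779 for SELENOS and chr22:31105951-31105953 for SELENOM. On the plus strand it lay at chr11:57741816-57741818 for SELENOH, chr1:25812789-25812791 for SELENON, chr3:150622392-150622394 for SELENOT and chr19:47780732-47780734 for SELENOW.

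Each library held 18399558 to 19334633 reads assigned to genes, recovered from the deposited FPKM (reads scaled by gene length and a library total) and the gene lengths. That total differed from the recovered reads, at 0.958 times them in NC replicate 2 and 0.971 times in si-circ_0000839 replicate 1. It reached 1.02 times in NC replicate 3. Of 10674 genes averaging 1 FPKM or more, limma on log2(FPKM + 1) called 41 at a Benjamini-Hochberg adjusted p under 0.05, 14 higher and 27 lower after si-circ_0000839. That split moved with scaling, to 32 higher and 24 lower in TPM, 29 and 34 after quantile normalization, and 111 and 109 once library trends along GC content and length were taken out. Replicate 1 of si-circ_0000839 and replicate 2 of NC stood apart: in the GC-richest quintile of genes they lay above the gene means by 0.11 and 0.08 (log2), and in the poorest quintile at -0.14 and -0.05. PAX8, a transcription factor of thyroid cells, averaged 96.3 FPKM after si-circ_0000839 and 95.8 in NC, and KRT8, an epithelial keratin, 190 and 208. Only 3 of 6 epithelial markers averaged at least 1 FPKM, and CDH1 had 0 reads in every library. TSHR, SLC5A5 and NKX2-1, which mark differentiated thyroid cells, had 0 reads in every library, where 3 reads would have given at most 0.0521 FPKM. The circular RNA itself was not looked up in the gene table, so its depletion is not shown here.

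SELENOF was lower in every si-circ_0000839 library than in any NC library. Its level was 23.4, 25.1 and 25.0 FPKM in si-circ_0000839 replicates 1, 2 and 3, against 47.3, 43.5 and 49.8 FPKM in NC replicates 1, 2 and 3. The highest treated library lay under the lowest control. The means were 24.5 ± 0.930 FPKM after si-circ_0000839 and 46.9 ± 3.20 FPKM in NC (SD, n = 3 each), a ratio of 0.523, with a log2(FPKM + 1) difference of -0.91 (SE 0.07, 95% interval -1.07 to -0.75). These levels rested on 946 to 1085 reads per si-circ_0000839 library and 1740 to 2089 reads per NC library. The 95% interval makes no allowance for the choice of the set by SELENOF, so nothing is read from its distance to 0. Without the 2 libraries that stood apart the difference was -0.93, and with the GC and length trend removed it was -0.79. Summed levels of 2 marker lists did not overlap between the groups, at very low levels. The 3 fibroblast markers summed to 0.673 to 0.886 FPKM after si-circ_0000839 and 0.441 to 0.564 FPKM in NC, with none of them at a mean of 1 FPKM. The 3 leukocyte markers summed to 0 to 0.0232 FPKM after si-circ_0000839 and 0.0251 to 0.0480 FPKM in NC. All of this came from CD68, as PTPRC and CD3E had 0 reads in all libraries. Each sum was under 0.0754 FPKM, the most that 3 reads of CD68 would have given, so nothing is read from the leukocyte gap. The part of these marker lists in the SELENOF result was not tested. In bulk RNA, fewer cells expressing a gene and less of its RNA per cell cannot be told apart.

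**Figure D1:**
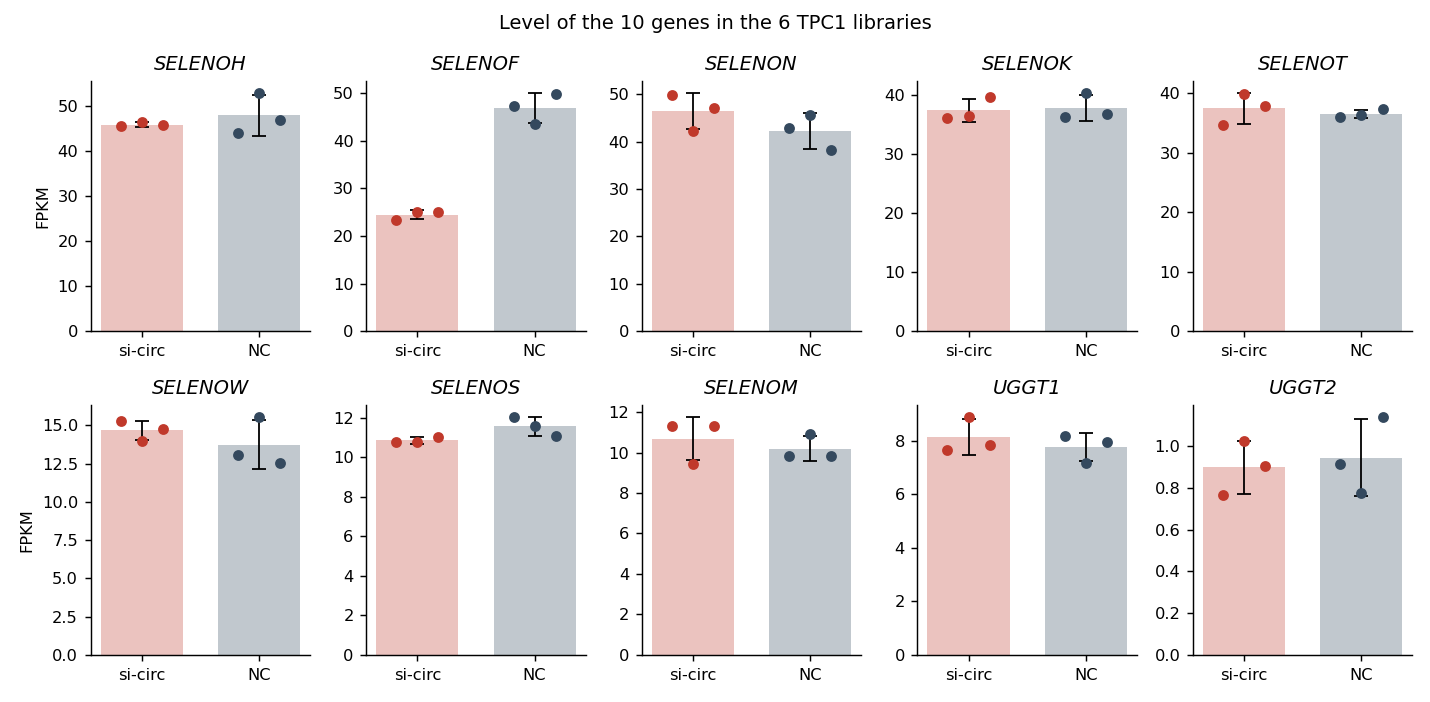
FPKM of each of the 10 genes in the 6 libraries, si-circ_0000839 (si-circ) left and NC right; points are libraries, bars the group means and error bars the SD (n = 3). SELENOF lies between 23.4 and 25.1 FPKM after si-circ_0000839 and between 43.5 and 49.8 in NC, while in the other genes the groups overlap or, in SELENOS, nearly touch.

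UGGT1, the glucosyltransferase that SELENOF binds, showed overlapping groups. Its level was 7.65, 8.91 and 7.86 FPKM after si-circ_0000839 and 8.19, 7.17 and 7.95 FPKM in NC, and the lowest of all 6 was an NC library. The log2 difference was 0.06 (SE 0.08, 95% interval -0.12 to 0.24). SELENOF stood at 3.06, 2.81 and 3.19 times the UGGT1 FPKM in the si-circ_0000839 libraries, against 5.77, 6.07 and 6.27 times in the NC libraries. UGGT2, a less active relative of UGGT1, averaged 0.898 ± 0.128 FPKM after si-circ_0000839 and 0.943 ± 0.185 FPKM in NC (SD, n = 3 each). It was under the minimum of 1 FPKM and so outside the fit. Without that minimum its log2 difference was -0.03 (95% interval -0.28 to 0.22). UGGT1 exceeded UGGT2 by 6.97 to 9.98 times per library, with overlapping ranges in the groups.

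SELENOM, the closest relative of SELENOF and likewise a thioredoxin-like protein of the ER lumen, had 11.3, 9.44 and 11.3 FPKM after si-circ_0000839 and 9.83, 10.9 and 9.82 FPKM in NC. Its groups overlapped, at a log2 difference of 0.06 (SE 0.09, 95% interval -0.13 to 0.25). SELENOT, an oxidoreductase anchored in the ER membrane, had 34.7, 39.9 and 37.9 FPKM after si-circ_0000839 and 36.0, 36.5 and 37.3 FPKM in NC, where it was the steadiest of the 10 genes (coefficient of variation 1.77%). SELENOT shares positions with SERP1 on the other strand, at 33.5 FPKM after si-circ_0000839 and 32.9 FPKM in NC. The strand setting is not given in the sources used here, so reads of this pair cannot be assigned with certainty.

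SELENOS and SELENOK are small ER membrane proteins that work with the Derlin and p97 machinery, which pulls misfolded proteins out of the ER for degradation. SELENOS had 10.8, 10.7 and 11.02 FPKM after si-circ_0000839 and 12.04, 11.6 and 11.09 FPKM in NC. Its groups did not overlap, but the highest treated and the lowest control library nearly met, and in TPM they did overlap. The log2 difference was -0.08 (SE 0.07, 95% interval -0.23 to 0.06). SELENOK, which also serves a palmitoylating enzyme, averaged 37.4 ± 1.99 FPKM after si-circ_0000839 and 37.8 ± 2.22 FPKM in NC (SD, n = 3 each). With a log2 difference of -0.01 (95% interval -0.18 to 0.15) it lay closest to 0 among the tested members, and its sign turned in 6 of 17 alternatives.

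SELENON is an ER glycoprotein needed for calcium handling in muscle. It had 49.9, 42.3 and 47.2 FPKM after si-circ_0000839 and 42.9, 45.6 and 38.2 FPKM in NC. The treated mean was the higher of the overlapping groups, with a log2 difference of 0.13 (SE 0.09, 95% interval -0.06 to 0.33). SELENOH, a redox protein of the nucleus, averaged 45.9 ± 0.493 FPKM after si-circ_0000839 and 48.0 ± 4.57 FPKM in NC (SD, n = 3 each). Its NC spread came from replicate 2, at 53.0 FPKM. SELENOW, a small cytosolic member of the same redox family as SELENOH and SELENOT, averaged 14.7 ± 0.633 FPKM after si-circ_0000839 and 13.7 ± 1.61 FPKM in NC, and there too NC replicate 2 was the highest library, at 15.6 FPKM.

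Of the 9 tested members, 1 passed the threshold over all genes, SELENOF, beside 0.384% of all tested genes. As SELENOF was chosen for that call, nothing is read from the count. The other 8 had log2 differences between -0.08 and 0.13, with a median of 0.05 against 0.01 for all tested genes. Their 95% intervals reached no lower than -0.23 and no higher than 0.33. Groups that did not overlap were seen in SELENOF, by whose levels the set was chosen, and in SELENOS, both lower. Without SELENOF that was 1 of 8 (12.5%), beside 18.1% of all tested genes in either direction and 7.55% in the lower one. Nothing is read from this count either.

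**Figure D2:**
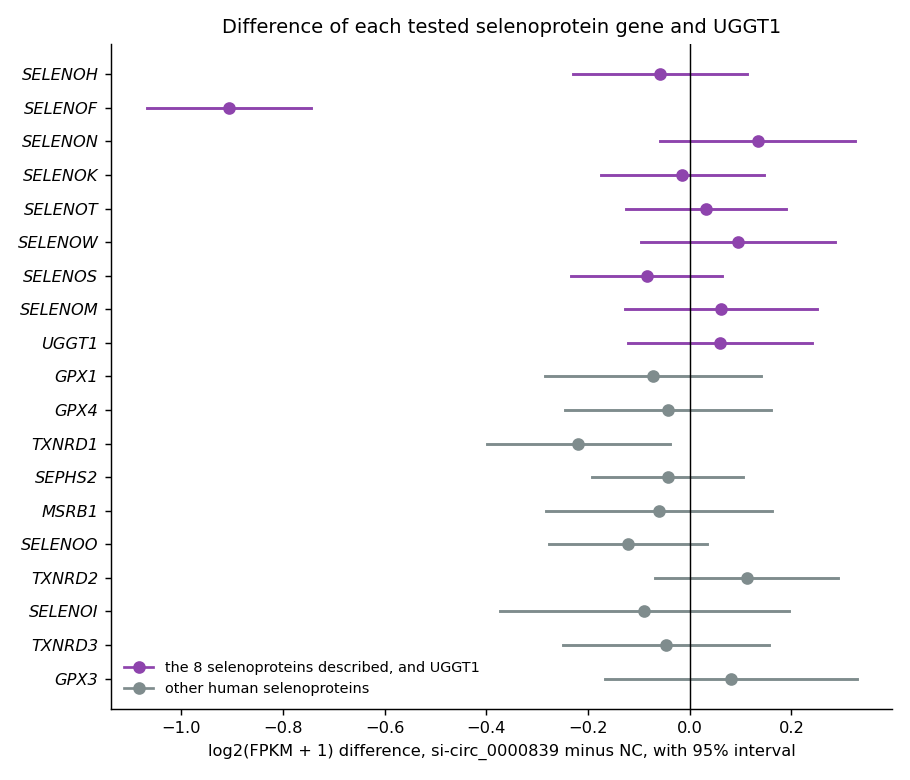
Difference in log2(FPKM + 1), si-circ_0000839 minus NC, with its 95% interval from limma, for the 8 selenoprotein genes and UGGT1 (purple) and for the 10 other tested human selenoproteins (grey). SELENOF, by whose levels the set was chosen, stands at -0.91, and nothing is read from its interval. The intervals of the other purple genes cross 0, and among the grey ones the interval of TXNRD1 does not.

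The level order of the 10 genes was read in the NC libraries, per kilobase of gene. SELENOH led at 48.0 FPKM, followed by SELENOF at 46.9, SELENON at 42.3, SELENOK at 37.8 and SELENOT at 36.6. Neighbours among these 5 had overlapping NC ranges. Within libraries, SELENON was above SELENOK in all 6. SELENOH was above SELENOF in 1 of 3 NC libraries, SELENOF above SELENON in 2 and SELENOK above SELENOT in 2, so these orders are not resolved. SELENOW at 13.7, SELENOS at 11.6, SELENOM at 10.2, UGGT1 at 7.77 and UGGT2 at 0.943 FPKM followed, each with its NC range clear of the next. After si-circ_0000839 SELENOF was below SELENON, SELENOK and SELENOT in each of the 3 libraries.

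The order depended on the gene length used. The deposited lengths equal the union of all annotated exons in all 58735 genes, which for SELENOW is 5261 bases, against 550 in the reference transcript that carries its selenocysteine codon. The reads of SELENOW spread over that transcript alone would amount to 140 FPKM after si-circ_0000839 and 131 in NC. The same rescaling put SELENOH at 127 FPKM after si-circ_0000839 and 133 in NC, and SELENOM at 49.1 and 46.8. SELENOF changed little, to 30.3 FPKM after si-circ_0000839 and 57.9 in NC, as its lengths of 2201 and 1781 bases are close. The ratio of the group means of a gene does not depend on this choice, while differences in log2(FPKM + 1) do, through the added 1.

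**Figure D3:**
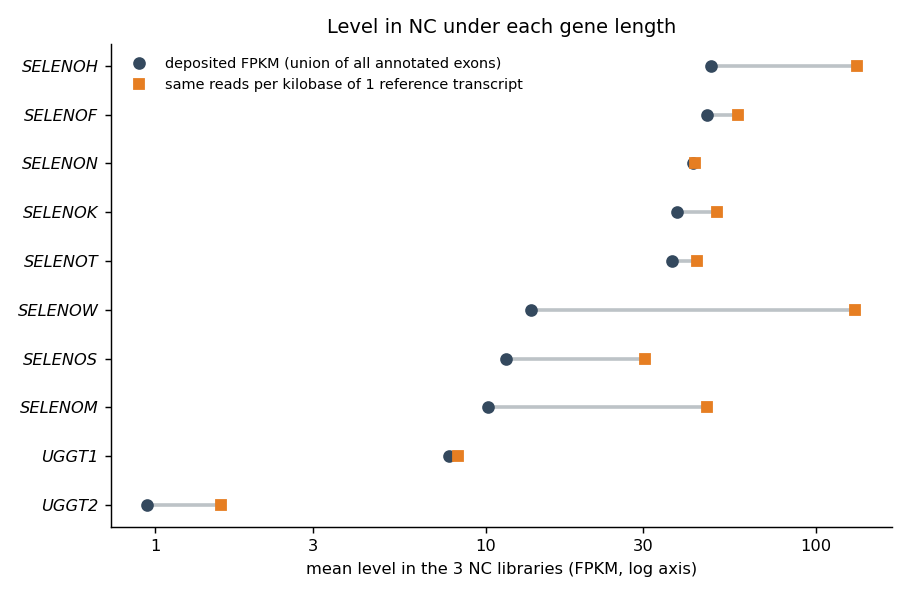
Mean level of each gene in the 3 NC libraries on a log axis, as deposited (circles, reads per kilobase of all annotated exons) and per kilobase of 1 reference transcript (squares). SELENOW moves from 13.7 to 131 FPKM and ranks second instead of sixth, while SELENON and UGGT1 hardly move.

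Among the 25 human selenoproteins, 18 had a mean of at least 1 FPKM. GPX1 and GPX4, glutathione peroxidases that remove hydrogen peroxide and lipid peroxides, led in all 6 libraries, at 760 and 325 FPKM after si-circ_0000839 and 799 and 335 FPKM in NC. SELENOF ranked 10, 9 and 9 in the si-circ_0000839 libraries and 4, 6 and 3 in the NC libraries. These ranks rest on the deposited lengths, and the selenoproteins outside the set were not rescaled. DIO3 and SELENOV had 0 reads in every library, where 3 reads would have given at most 0.0785 and 0.0953 FPKM.

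Beside the 8, the other 17 selenoproteins held 10 tested genes, of which 0 rose and 0 fell in limma. The median log2 difference was -0.05, and 1 gene had an unadjusted p under 0.05 in limma. Over all tested genes that share was 12.6%, which applies beside the same count in each list below. The 1 gene among the other selenoproteins was TXNRD1, the cytosolic thioredoxin reductase. It had 35.9, 42.5 and 42.4 FPKM after si-circ_0000839 and 48.4, 44.4 and 47.9 FPKM in NC. Its groups did not overlap as deposited but did in TPM, and its log2 difference of -0.22 (SE 0.08) missed the threshold (adjusted p = 0.309, limma). SELENOO, a mitochondrial pseudokinase that attaches AMP to proteins, averaged 16.0 and 17.5 FPKM (si-circ_0000839 and NC; adjusted p = 0.522 in limma), and TXNRD2, the mitochondrial thioredoxin reductase, 14.95 and 13.7 FPKM (adjusted p = 0.621).

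The machinery that inserts selenocysteine also held no called gene. Of 7 tested members 0 rose, 0 fell and 1 had an unadjusted p under 0.05, with a median log2 difference of 0.01. TRNAU1AP, which binds the selenocysteine tRNA, had 6.59, 6.51 and 6.9955 FPKM after si-circ_0000839 and 7.57, 9.03 and 7.58 FPKM in NC (log2 difference -0.23, SE 0.08, adjusted p = 0.288 in limma). Every treated library was below every control. EEFSEC, the elongation factor for selenocysteine, averaged 11.1 ± 0.957 FPKM after si-circ_0000839 and 10.4 ± 1.11 FPKM in NC. SARS, the synthetase that loads the tRNA with serine, averaged 64.7 and 63.4 FPKM in the same order of groups, and SEPHS1, a paralog of the selenophosphate synthetase, 31.0 and 32.6 FPKM.

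In the glucosidase and calnexin cycle, the pathway into which UGGT1 feeds its substrates, 0 of 11 tested genes passed and 1 had an unadjusted p under 0.05. The median log2 difference was 0.09, with 8 genes above 0, beside 5529 of all 10674 tested genes. CALR, the soluble lectin chaperone calreticulin, had 772, 674 and 702 FPKM after si-circ_0000839 and 633, 708 and 603 FPKM in NC, with groups that overlapped (adjusted p = 0.552 in limma). CLGN, a calnexin-like chaperone best known from testis, had 10.2, 14.5 and 13.4 FPKM after si-circ_0000839 and 17.1, 15.8 and 17.8 FPKM in NC. All 3 treated libraries lay below the controls, at a log2 difference of -0.40 (SE 0.11, adjusted p = 0.190). In TPM the CLGN groups overlapped. LMAN2, a cargo lectin of the secretory pathway, averaged 123 and 120 FPKM (si-circ_0000839 and NC), and MCFD2, a partner of a cargo receptor, 30.1 and 26.9 FPKM.

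Mannose-trimming enzymes and lectins that send glycoproteins to degradation held 10 tested genes, 0 called and 0 at an unadjusted p under 0.05. The lectin gene OS9 averaged 42.1 FPKM after si-circ_0000839 and 38.5 FPKM in NC, and EDEM2, which starts mannose trimming, 33.3 and 32.05. EDEM1 averaged 10.7 and 9.33 FPKM, and the Golgi mannosidase gene MAN1A1 3.89 and 4.48. Among genes of ER-associated degradation, where SELENOS and SELENOK act, 0 of 17 tested passed and 1 had an unadjusted p under 0.05. VCP, the p97 ATPase that SELENOS recruits, stood at 141 ± 9.76 FPKM after si-circ_0000839 and 142 ± 10.2 FPKM in NC (SD, n = 3 each). UBXN6, a cofactor of p97, averaged 41.9 and 48.9 FPKM (log2 difference -0.22, adjusted p = 0.323 in limma). With the GC and length trend removed, UBXN6 was lower past the threshold (adjusted p = 0.0309). HERPUD1, an ER membrane protein whose transcript rises in ER stress, had 11.7, 10.9 and 11.5 FPKM after si-circ_0000839 and 12.6, 12.7 and 12.2 FPKM in NC. Every treated library was below every control, at a log2 difference of -0.12 (SE 0.07, adjusted p = 0.494 in limma). UBE2J2, a ubiquitin-conjugating enzyme of the ER membrane, averaged 36.7 FPKM after si-circ_0000839 and 33.3 FPKM in NC, and AUP1, a membrane protein that recruits such an enzyme, 51.05 and 47.2 FPKM, with overlapping groups in both genes.

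ER chaperones and disulfide enzymes held 22 tested genes, 0 called and 1 with an unadjusted p under 0.05. HSPA5, the ER chaperone BiP whose transcript rises in ER stress, had 332, 328 and 315 FPKM after si-circ_0000839 and 298, 305 and 289 FPKM in NC. Every treated library was the higher, by a small margin (log2 difference 0.13, SE 0.07, adjusted p = 0.481 in limma). HYOU1, its nucleotide exchange factor, averaged 37.6 and 33.1 FPKM (adjusted p = 0.419), and P4HB, a protein disulfide isomerase, 207 and 202 FPKM. QSOX1, a secreted and Golgi sulfhydryl oxidase, averaged 31.0 ± 3.07 FPKM after si-circ_0000839 and 25.3 ± 2.51 FPKM in NC (log2 difference 0.29, adjusted p = 0.246).

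The oligosaccharyltransferase attaches the glycans UGGT1 later inspects. As deposited, it was the list with the most genes whose groups did not overlap. There were 7 such genes among 11 tested, 6 lower and 1 higher. Over all tested genes the share was 18.1% in either direction and 7.55% in the lower one. The split was 6 lower and 1 higher with median-ratio size factors too (18.4% of all tested genes). It was 3 lower and 3 higher in TPM (21.5% of all), and 4 lower and 3 higher after quantile normalization (20.9% of all). In TPM the genes of ER-associated degradation had more by count, 3 lower and 4 higher among 17 tested. Their share was smaller, at 41.2% against 54.5% for the oligosaccharyltransferase. STT3B, the catalytic subunit that glycosylates sites after translation, had 17.4, 20.8 and 19.2 FPKM after si-circ_0000839 and 25.8, 22.5 and 26.5 FPKM in NC. MAGT1, the oxidoreductase subunit of the STT3B complex, had 11.1, 12.04 and 11.4 FPKM after si-circ_0000839 and 15.2, 13.6 and 16.0 FPKM in NC. Both were lower in each treated library as deposited, though the STT3B groups overlapped in TPM, and neither passed over all genes in limma, at log2 differences of -0.36 (SE 0.09, adjusted p = 0.117) and -0.35 (SE 0.08, adjusted p = 0.106). With the GC and length trend removed they passed, at adjusted p = 0.0160 and 0.0199. RPN2, a structural subunit, was higher in each treated library, with 111, 114 and 110 FPKM after si-circ_0000839 and 97.6, 94.95 and 96.7 FPKM in NC (log2 difference 0.21, SE 0.06, adjusted p = 0.218). DAD1 averaged 232 and 231 FPKM (si-circ_0000839 and NC), and OST4 averaged 197 and 216 FPKM. Over all 7 lists, 0 of 88 tested genes passed in limma or in voom, and 8 had an unadjusted p under 0.05, 2 higher and 6 lower, beside 12.6% of all tested genes.

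**Figure D4:**
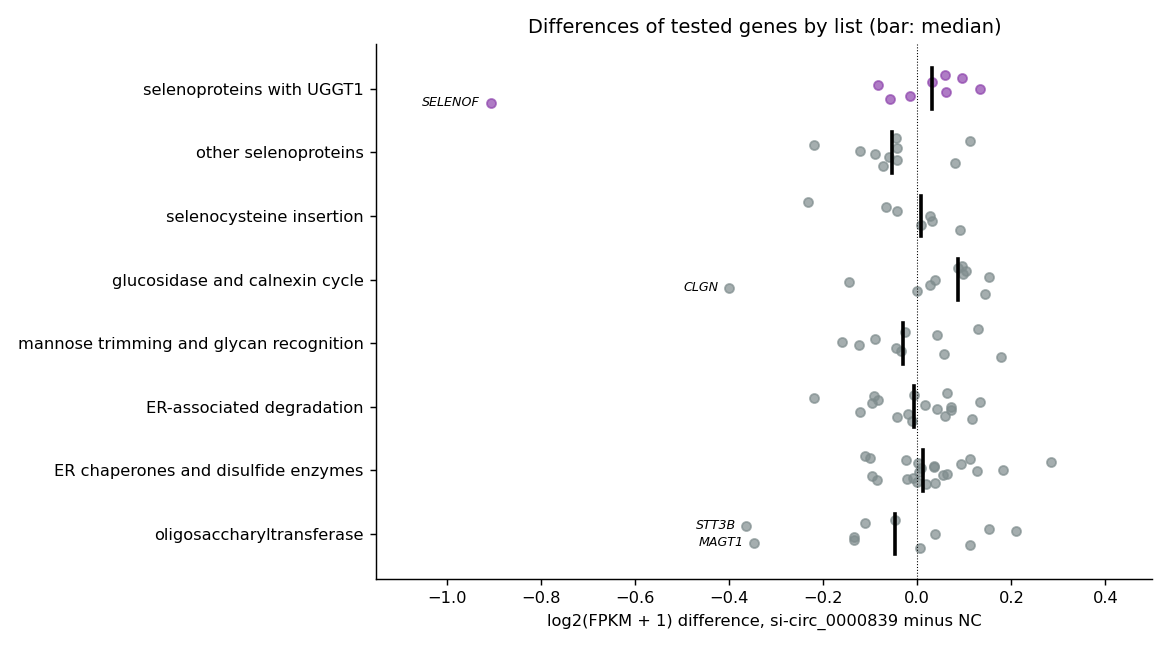
Difference in log2(FPKM + 1), si-circ_0000839 minus NC, of each tested gene (point) in the selenoprotein group with UGGT1 (top, purple) and in 7 related lists (grey), with the list median as a bar; named points lie more than 0.3 from 0. List medians sit between -0.05 and 0.09, and CLGN, STT3B and MAGT1 are the grey genes furthest below 0, none of them past the threshold.

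SELENOF (ENSG00000183291) spans chr1:86862445-86914424 on the minus strand of GRCh38 and overlaps no other gene of the table. Upstream of it lies HS2ST1, a heparan sulfate sulfotransferase gene on the plus strand, with 223 bases between the gene models. HS2ST1, named here after its values were seen, had 1.68, 2.09 and 1.98 FPKM after si-circ_0000839 and 1.98, 1.58 and 2.13 FPKM in NC. The groups overlapped, with a log2 difference of 0.01 (SE 0.10). The nearest protein-coding gene on the other side, SH3GLB1, averaged 9.78 and 9.96 FPKM (si-circ_0000839 and NC). Neither neighbour of SELENOF passed the threshold in limma.

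RefSeq gives SELENOF 2 starts, at 86914577 and 86914475, and HS2ST1 a start at 86914635, which differ from the ends of the gene models above. The stretch between the HS2ST1 start and the nearer SELENOF start is shown because these neighbours begin on its opposite sides. It covers 57 bases of RefSeq's GRCh38.p14 sequence, chr1:86914578-86914634, minus strand, read toward SELENOF, with capitals for the letters CCGCCC, the reverse complement of the GC box GGGCGG.
SELENOF upstream: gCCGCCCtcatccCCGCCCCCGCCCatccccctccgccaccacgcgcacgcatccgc
The stretch held 3 such matches and 80.7% G or C. RefSeq promoter windows, each spanning a start, were found for 9 of the 10 genes. These 9 genes had 10 windows. GGGCGG, on either strand, was in all 10, against 45.0% of all 35116 windows. The share over all windows was taken with no selection for expression, so it is no measure for expressed genes. CCAAT was found in 4 of the 10, 1 each for SELENOF, SELENOK, SELENOS and SELENOW, against 34.6% of all windows. TATAAA was in none of the 9 (11.5% of all), and the ER stress element, searched on both strands, in none (0.0769% of all).

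The genes most like SELENOF over the 6 libraries were sought among tested protein-coding genes by the root mean square difference of log2(FPKM + 1) profiles centred on their own means. They were CTR9 (0.09), GOLPH3L (0.12), ANKRD52 (0.15), TAF12 (0.16) and PI3 (0.17), on chromosomes 11, 1, 12, 1 and 20. CTR9, a subunit of the PAF1 elongation complex, had 3.46, 4.29 and 4.39 FPKM after si-circ_0000839 and 8.22, 6.71 and 8.38 FPKM in NC. ANKRD52, a subunit of protein phosphatase 6, had 25.3, 22.3 and 23.3 FPKM after si-circ_0000839 and 44.6, 52.2 and 45.5 FPKM in NC. In CTR9, as in SELENOF, replicate 1 was the lowest si-circ_0000839 library and replicate 2 the lowest NC library, while in ANKRD52 each of these was the highest of its group. A profile like this one consists mainly of that gap, so all 5 are genes called lower, as the measure would bring. CTR9 shares positions with EIF4G2 and TAF12 with RAB42, each on the other strand, at 66.3 and 15.3 FPKM after si-circ_0000839 and 70.1 and 17.0 FPKM in NC, so some of their reads may be misassigned.

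**Figure D5:**
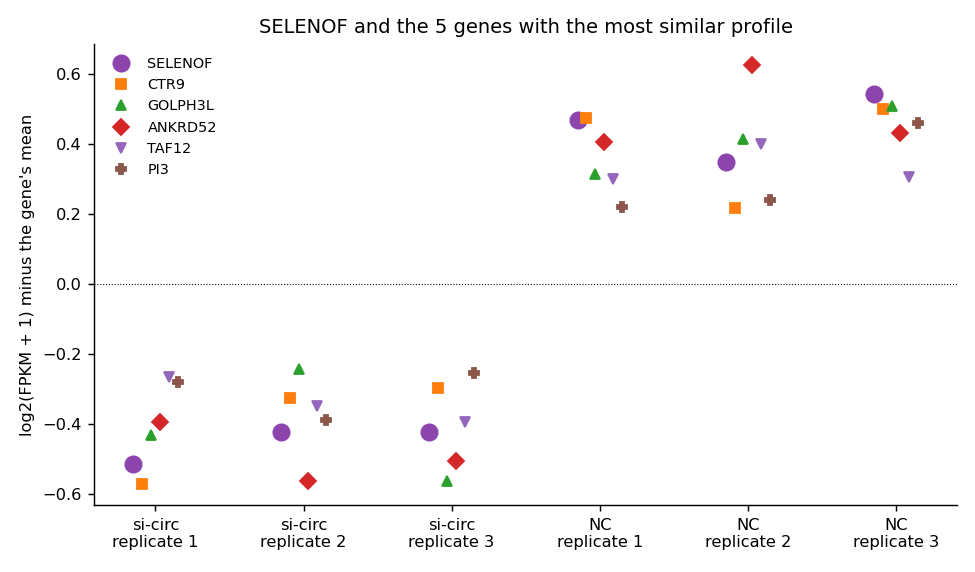
Profile of SELENOF and of the 5 protein-coding genes nearest to it, as log2(FPKM + 1) minus the gene's mean over the 6 libraries; each point is a library, si-circ_0000839 left and NC right. All 6 genes lie below 0 in every si-circ_0000839 library and above 0 in every NC library.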

How the data were processed

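RNA of 6 TPC1 samples was sequenced, 3 per group. The authors deposited one table of FPKM per gene with gene lengths, per the file headers. Alignment and counting tools, per the submitters' processing notes, include HISAT2 2.0.5 and featureCounts 1.5.0-p3. Strand, build and library scaling: not given in the sources used here. All 58735 genes matched GENCODE release 29 in coordinates. FPKM times length gave whole reads, within 0.01, in 100% of values above 0. Depth was 18399558 to 19334633 reads per library. How much of the spread counting error covers was not tested.

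The fit was limma 3.58.1 (R 4.3.3), trended, two-sided, on log2(FPKM + 1), for genes averaging 1 FPKM or more, with group as the only term and Benjamini-Hochberg adjustment over all 10674 genes. Differences on this scale understate changes of low genes. The genes and lists were chosen with earlier results of these data known. From each list, called genes or else the 3 with the smallest p, and the 2 most abundant, are named; likewise the 5 profiles nearest to SELENOF, and genes or numbered pseudogenes overlapping or copying a member with at least 1 FPKM. Alternatives were pseudocounts of 0.1 and 0.5, no minimum or 5 FPKM, TPM, quantile and median-ratio scaling, a replicate block, voom and leaving out each library. After seeing the data, 2 more were added: removing spline trends (5 degrees of freedom) along GC content and gene length, and leaving out 2 libraries together.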

Additional observations from a re-analysis of the deposited data

How the results depend on the processing

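The log2 difference of SELENOF lay between -0.96 and -0.79 over the reported fit and 17 alternatives, and as the set was chosen by this difference nothing is read from its calls. The count of called members was 1 in each of these fits, which held 9 of the 10 genes, or all 10 with no minimum FPKM. Small differences turned sign in some alternatives for SELENOK (6), SELENOH (2), SELENOT (1) and UGGT1 (1). The number of genes called among all tested, 41, was 4 with no minimum FPKM, 68 with a minimum of 5 FPKM, 63 after quantile normalization, 85 with voom, 220 with the GC and length trend removed, and 20 without si-circ_0000839 replicate 1 and NC replicate 2. Leaving out 1 library gave 20 to 37, with 20 without si-circ_0000839 replicate 1, 21 without replicate 3 and 21 without NC replicate 3. In the 7 related lists 0 genes passed, except that 3 (MAGT1, STT3B and UBXN6) were lower with the GC and length trend removed. The cause was not tested. Deviations of same-numbered libraries correlated at -0.15, -0.29 and 0.15, so no pairing by replicate number was seen. These values cannot exclude one, as trends of single libraries along GC content enter them. A fit with the replicate block called 35 genes in all, with SELENOF the 1 member. UGGT2, with 114 to 176 reads per library, is the member that depth limits most.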

Other observations

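Pseudogenes of the selenoprotein genes were nearly silent. SELENOTP1, a processed copy of SELENOT named here after its values were seen, was at 0.224, 1.04 and 0.558 FPKM after si-circ_0000839 and 0.635, 0.678 and 0.863 FPKM in NC. Neither SELENOTP1 nor any other numbered pseudogene of SELENOK, SELENOT or SELENOW reached a mean of 1 FPKM.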
